A study of Homo sapiens with 17 samples.

Results

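The hairpin mir-21 is the source of miR-21-5p, one of the most abundant microRNAs of epithelial tumour cells. It was chosen by name as the row hsa-mir-21, which is 1 of 1282 hairpins listed for 15 rescue libraries and 1 of 294 hairpins listed for the parental and dCTT libraries. Its level and its share of the library were followed through all 17 libraries. The study sequenced small RNAs of 17 to 30 nt from HCT116, an established human colon carcinoma cell line, and its title concerns the need of Microprocessor for hemin in recognising the apical loop of primary microRNAs. The parental group (1 library) is unedited HCT116. The dCTT group (1 library) is HCT116 in which genome editing removed the CTT domain of DGCR8, described by the labels as a functional knockout. The other 5 groups of 3 libraries are all dCTT cells and carry the same deletion. They received a mock rescue (mock), the wild-type protein (WT), DGCR8 carrying C352A (C352A), DGCR8 carrying P351A (P351A), or P351A DGCR8 together with an agent named only as ALA in the labels (P351A plus ALA). The labels give no clone number for the edited line, no amount of rescue protein and no dose of ALA. Nor do they state whether the 3 libraries of a group came from different cultures, and the p-values below therefore cover only library-to-library spread, possibly technical.

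Microprocessor, formed by the nuclease DROSHA and the RNA-binding protein DGCR8, is the nuclear complex that cuts a primary microRNA transcript at the base of its hairpin. DICER then cuts the loop away, and 1 strand enters an Argonaute protein, which it guides to messenger RNAs that pair with its seed. DGCR8 binds heme through a region that holds the residues changed here, and heme promotes the binding of DGCR8 to the apical part of the hairpin. miR-21-5p is raised in most solid tumours, colorectal carcinoma included, and represses tumour suppressor messages such as that of PDCD4. Messenger RNAs are not measured in small RNA libraries, so neither DGCR8 nor any target of miR-21-5p could be read here.

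The mature sequence is shown because its uniqueness bears on which reads can be assigned to mir-21, and its seed on which messenger RNAs it pairs with. In RefSeq on GRCh38.p14 miR-21-5p lies at chr17:59841273-59841294 on the plus strand. The seed, bases 2 to 8, is in capitals. Among 2545 mature human sequences in that table, 2 carry this seed, namely miR-21-5p itself and miR-590-5p (chr7:74191213-74191234, plus strand):
miR-21-5p: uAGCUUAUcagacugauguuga
miR-590-5p: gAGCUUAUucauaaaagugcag
The hairpin with its mature arm in capitals spans 72 nt at chr17:59841266-59841337 on the plus strand:
mir-21: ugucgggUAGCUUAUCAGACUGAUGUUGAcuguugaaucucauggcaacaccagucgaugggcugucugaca
Of 1562 hairpins in the table, 1 holds any stretch of 17 nt of miR-21-5p, and that is mir-21. The closest match elsewhere had 7 mismatches over the 22 nt. miR-21-5p therefore has no near-identical copy in the table to share reads with, unlike the let-7 or mir-320 hairpins. The other arm of the hairpin was not checked in this way.

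In GENCODE release 29 (GRCh38) the hairpin gene MIR21 falls within the span of VMP1 (chromosome 17, 59707192 to 59842255, plus strand), a gene of autophagosome formation read on the same strand. It begins 174 bases past the end of the coding transcript VMP1-201 and is covered by an exon of VMP1-216, a retained-intron transcript without a coding sequence (59837931 to 59842255). MIR21 is the only microRNA gene within VMP1, and 0 others lie within 100 kb, so mir-21 is not part of a cluster.

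The apical loop is the element named in the study's title. With RNAfold the mir-21 hairpin folded into a single stem-loop of -34.6 kcal/mol, or -0.48 kcal/mol per nt, against a median of -0.46 over 336 hairpins. The predicted terminal loop had 3 nt, in capitals here:
mir-21 loop: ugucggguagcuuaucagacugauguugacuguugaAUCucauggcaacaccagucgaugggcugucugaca
Over the 327 hairpins that folded with a single loop the loop had a median of 6 nt (3 to 19), and 29 (8.87%) shared the 3 nt of mir-21. The letters UGU do not occur in its predicted loop, and they occur in that of 42 of the 327 hairpins (12.8%). These counts cover the predicted loop only. In mir-21 the letters UGU do stand between the mature arm and that loop. These are predictions for the isolated hairpin sequence and say nothing about its structure in cells.

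Values were deposited on a scale set by the authors and are called scaled reads below. On that scale the DGCR8-independent hairpin mir-320a, which arises at a transcription start without Microprocessor, varied far less than mir-21 but was not level. Its group means were 59852 ± 3448 in mock, 63748 ± 1911 in C352A, 65703 ± 2284 in WT, 75177 ± 2711 in P351A and 91619 ± 3208 in P351A plus ALA (SD, n = 3 each). Depth, the sum of reads over hairpins, was 5122793 in the parental and 168798 in the dCTT library. Mock libraries had 146023 to 587214 reads and C352A libraries 199133 to 1023184. The range was 660126 to 1470755 for WT, 1666688 to 2175294 for P351A and 1191542 to 1941805 with ALA. The deepest library of a group had the highest mir-21 level in 4 of 5 groups, and the part of depth in the differences between groups was not tested. The P351A and P351A plus ALA libraries also stood apart in mir-373, a hairpin of pluripotent cells, which had 0 reads in all 6 of them and between 1038 and 5176 scaled reads in the other 9; its part in the results below was not tested. Of 9 intestinal epithelial hairpins (5 of the miR-200 family and 4 of mir-192, mir-215 and the mir-194 copies) all 9 had reads in every group. Markers of other cell types were given for 5 of 5 blood, 1 of 1 liver, 2 of 5 muscle, 3 of 6 neuronal, and 3 of 3 stromal and vascular hairpins. In the rescue libraries the blood hairpins summed to between 4.05 and 60.0 scaled reads, the muscle mir-133a copies to at most 4.44, and mir-122 of liver to at most 1.72. The 3 neuronal hairpins, the mir-9 copies, differed between groups: their sum was 1991 to 3070 under P351A, 901 to 1777 with ALA added, 399 to 831 for mock, 325 to 1313 for WT, and 228 to 500 for C352A. Each copy ran from 75.9 to 1023 scaled reads over the rescue libraries, with a median of 277. This sum, like depth, may therefore count the same reads more than once. The stromal and vascular mir-143, mir-145 and mir-126 summed to 1482 to 2295 for WT, 355 to 438 for P351A, and between 585 and 847 in the other groups. The part of these hairpins in the results on mir-21 was not tested.

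In cells without rescue, mir-21 stood at 256959 scaled reads in the parental library (400430 reads) and at 4876 in the dCTT library (4876 reads). The parental level was 52.7-fold higher, with a counting interval of 51.2 to 54.2 at 95%. The parental library lay far above the dCTT library, and so did most hairpins: 87.4% of the 294 listed hairpins were over 4-fold higher in the parental library. The log2 ratio of mir-21 was 5.72 against 5.54 for the median hairpin, and 110 of 294 hairpins had a larger one. mir-21 was the second most abundant microRNA of the parental library after mir-100 (264252 scaled reads) and had rank 4 in the dCTT library, where mir-320a led, followed by mir-320b. It took 7.82% of the parental library (95% Wilson interval 7.79 to 7.84) and 2.89% of the dCTT library (2.81 to 2.97), which cover counting error only. The drop of mir-21 made up 8.08% of the difference between the summed values of the libraries. There is 1 library per group, so this difference has no replicate check and no test. The log2 ratio was 1.31 after centring each library on its own median hairpin and 1.44 with equal totals, so its size depends on the scaling. That library median differs from the median of the hairpin ratios (5.54). The ratio of mir-21 to mir-320a within a library was 8.41 in the parental and 0.160 in the dCTT library. mir-320a itself held 30548 scaled reads in the parental and 30425 in the dCTT library. This ratio and the level of mir-21 therefore carry nearly the same difference. How the authors set the scale is not given, so the near-equal mir-320a values are no independent check of it.

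In the rescued cells the mir-21 level ordered the groups as C352A, mock, P351A, P351A plus ALA and WT, from low to high. The C352A libraries held 29069, 20844 and 21505 scaled reads (mean 23806 ± 4570, SD, n = 3). The mock libraries, called a, b and c because their columns carry no replicate number, held 55688, 32230 and 27725 (38548 ± 15014, SD, n = 3). The lowest mock library lay below the highest C352A library, so these neighbours overlapped. The P351A libraries held 68606, 92311 and 89927 (83615 ± 13052, SD, n = 3). The P351A plus ALA libraries held 140549, 222676 and 207335 (190187 ± 43667, SD, n = 3). Each of these groups stood clear of the one below it. The WT libraries held 357939, 170815 and 164155 (230969 ± 110009, SD, n = 3). WT library 1 lay far above the other WT libraries, which fell inside the range of P351A plus ALA. The coefficient of variation of the level was 47.6% in WT, 38.9% in mock, 23.0% in P351A plus ALA, 19.2% in C352A and 15.6% in P351A.

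**Figure D1:**
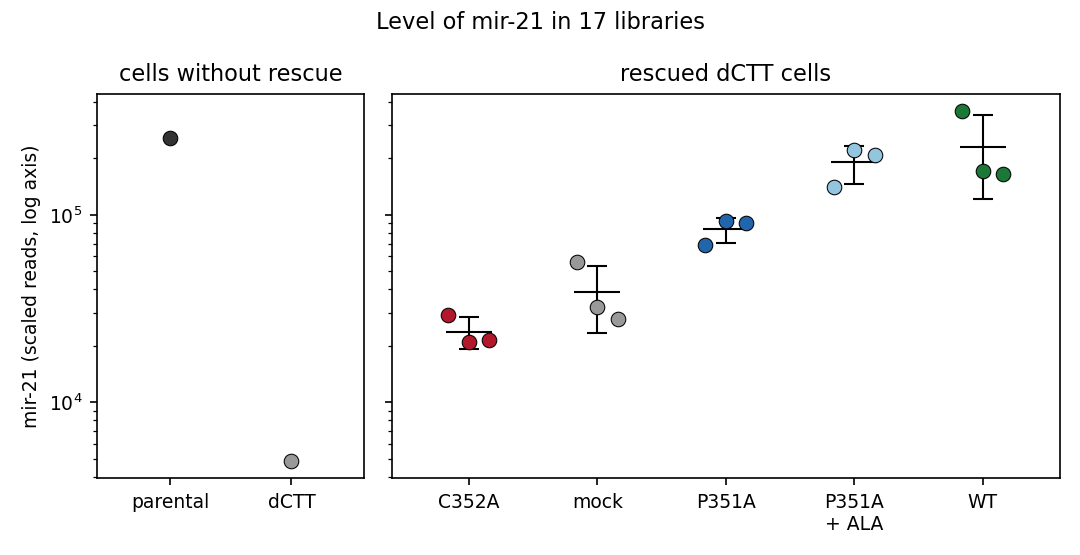
Level of mir-21 in scaled reads (log axis), with cells without rescue on the left and rescued cells on the right; points are libraries and bars are means ± SD of 3 libraries, and the tables behind the panels were scaled separately. The rescue groups rise from 23806 in C352A to 230969 in WT, with overlap only between C352A and mock and between P351A plus ALA and WT.

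Wild-type DGCR8 was accompanied by a mir-21 level 5.99-fold that of mock, comparing group means, and no WT library fell within the mock range, as for 57.1% of tested hairpins in this direction. The fitted log2 change was 2.55 (95% interval 1.96 to 3.15; limma adjusted p = 1.57e-06, n = 3 against 3). In this comparison 55.7% of the 336 tested hairpins rose and 7.44% fell, with a median log2 change of 1.13, and 31 hairpins had a larger change than mir-21. The direction held on each scaling tried: the log2 change was 1.84 after centring libraries on their median hairpin (median centring) and 1.11 with equal totals, where 54 hairpins rose and 126 fell against 187 and 25 on the authors' scale. Centred instead on the median of 5 hairpins made without DGCR8, it was 1.36 with a limma adjusted p of 0.123. These hairpins lie far apart in level, so this median follows a single hairpin in each library. That was mir-484 in most libraries, and mir-877 in WT library 1 and P351A library 3. mir-484 alone ran from 654 to 3836 scaled reads within P351A plus ALA.

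Between C352A and mock the level of mir-21 was not called different. The C352A mean was lower, with a log2 difference of -0.64 (95% interval -1.24 to -0.05; limma adjusted p = 0.104), and the libraries overlapped. Without mock library a it was -0.35. The median tested hairpin stood at -0.66, and 14.3% of hairpins fell while 0.595% rose. The difference was 0.079 with median centring and 0.000194 with edgeR's TMM scaling, so its sign is not stable across scalings. Comparing only these groups gave the same -0.64 with a limma adjusted p of 0.0255. The count of hairpins called in either direction also depended on single libraries: it was 50 (14.9%) with all of them, 23 and 28 without C352A library 1 or 3, 31 without mock library a, 24 without b and 23 without c.

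Against WT, the C352A rescue gave the largest fall of mir-21 among the comparisons between rescue groups. Its mean was 9.70-fold lower, and the highest C352A library (29069) lay far under the lowest WT library (164155). The log2 change was -3.20 (95% interval -3.79 to -2.60; limma adjusted p = 7.29e-08). Of the tested hairpins 65.5% fell, with a median of -1.76, and 28 had a lower value than mir-21. By limma 0 hairpins rose, also at an unadjusted p under 0.05, whereas edgeR with TMM called 111 higher and DESeq2 96. A lack of overlap in this direction was shared by 66.4% of hairpins. mir-21 fell on every scaling tried, by 1.76 with median centring, 1.55 with equal totals, 1.28 with TMM and 2.41 with centring on the DGCR8-independent hairpins. With median centring 86 hairpins rose and 122 fell, so the one-sided count belongs to the authors' scale, while the fall of mir-21 does not.

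P351A DGCR8 was accompanied by a mir-21 level between those of mock and WT. It was 2.17-fold that of mock, with no overlap of libraries (29.8% of hairpins in this direction) and a log2 change of 1.17 (95% interval 0.58 to 1.77; limma adjusted p = 0.00244). Of the tested hairpins 22.6% rose against mock and 25.9% fell, the median was -0.027, and 70 had a larger change than mir-21. The rise was 1.46 with median centring and 0.47 with equal totals (limma adjusted p = 0.0253), and 0.61 with centring on the DGCR8-independent hairpins (limma adjusted p = 0.513). The split of calls was 76 higher and 87 lower on the authors' scale, 114 and 73 with median centring, and 55 and 164 with equal totals.

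Against WT, P351A gave 2.76-fold less mir-21, again without overlap (60.1% of hairpins in this direction), with a log2 change of -1.38 (95% interval -1.97 to -0.79; limma adjusted p = 0.000571). Here 51.2% of hairpins fell and 3.27% rose, with a median of -0.95, and 121 had a lower value than mir-21. The difference was not called with median centring (-0.38, limma adjusted p = 0.219) and took the other sign with TMM (0.13, edgeR adjusted p = 0.603). With equal totals it remained called at -0.63 (limma adjusted p = 0.00702).

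The P351A and C352A rescues differed from each other in mir-21. The P351A level was 3.51-fold that of C352A, its libraries did not overlap those of C352A (47.6% of hairpins in this direction), and the log2 change was 1.82 (95% interval 1.22 to 2.41; limma adjusted p = 5.21e-05). The median hairpin changed by 0.56, 36.9% of hairpins rose and 14% fell, and 63 had a larger change. The sign was the same on each scaling tried, at 1.38 with median centring, 0.92 with equal totals and 1.41 with TMM. Centred on the DGCR8-independent hairpins it was 1.66, with a limma adjusted p of 0.0563. Both mutant proteins differ from wild-type DGCR8 by a single amino acid, and the labels do not give their levels.

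ALA added to P351A cells was accompanied by a further 2.27-fold of mir-21. All 3 treated libraries lay above all 3 P351A libraries, as for 60.1% of hairpins, and the log2 change was 1.17 (95% interval 0.58 to 1.76; limma adjusted p = 0.00251). The set of hairpins moved with it: 44.6% rose and 2.98% fell, the median was 0.81, and 118 of 336 had a larger change than mir-21. After each library was centred on its own median hairpin, the change of mir-21 was 0.033 (limma adjusted p = 0.921). It was -0.0033 with TMM and -0.82 with centring on the DGCR8-independent hairpins. The rise of mir-21 under ALA thus held on the authors' scale and not on these scalings. With equal totals and with DESeq2 the change was positive but smaller than on the authors' scale. The mean share of the library was 13.3% against 10.1%, and the mean ratio to mir-320a 2.07 against 1.12. Libraries did not overlap in either measure (exact permutation p = 0.1 in each, the smallest the design allows). The shares did overlap on other library sums. Without the mir-320 hairpins P351A plus ALA library 1 held 13.5%, below the 14.0% and 14.6% of P351A libraries 2 and 3. With copies of 1 mature name counted once it held 14.3%, below their 14.4% and 14.9%. The hairpins that do not need DGCR8 rose as well: all 5 tested were called, with a median log2 change of 1.78 and mir-320a at 0.29, though with median centring 2 rose, 1 fell and mir-320a was at -0.85. Their part in the rise of mir-21 was not tested.

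With ALA, mir-21 in P351A cells was 4.93-fold that of mock, without overlap (46.7% of hairpins in this direction; log2 change 2.34, 95% interval 1.75 to 2.94; limma adjusted p = 2.66e-06). There 49.4% of hairpins rose and 8.93% fell, with a median of 0.87, and 47 exceeded mir-21. The sign turned to -0.21 with centring on the DGCR8-independent hairpins and was positive with median centring (1.49) and equal totals (0.86). Against C352A it was 7.99-fold higher (log2 change 2.99, 95% interval 2.39 to 3.58; limma adjusted p = 1.08e-07), again without overlap (69.9% of hairpins). There 66.4% of hairpins rose, 3.27% fell and the median was 1.51. Centred on the DGCR8-independent hairpins the change was 0.84, with a limma adjusted p of 0.372.

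P351A plus ALA and WT overlapped in mir-21, and the difference was not called. Its log2 size was -0.21 with a 95% interval of -0.80 to 0.38 (limma adjusted p = 0.583), an interval that allows a change of either sign. The median hairpin stood at -0.22, while 13.7% of hairpins rose and 20.2% fell. The sign rests on a single library: without WT library 1 the difference was 0.16. It was 0.13 with TMM, and -1.58 with centring on the DGCR8-independent hairpins (limma adjusted p = 0.038). The number of hairpins called in this comparison was 114 (33.9%), and 56 without P351A plus ALA library 1.

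**Figure D2:**
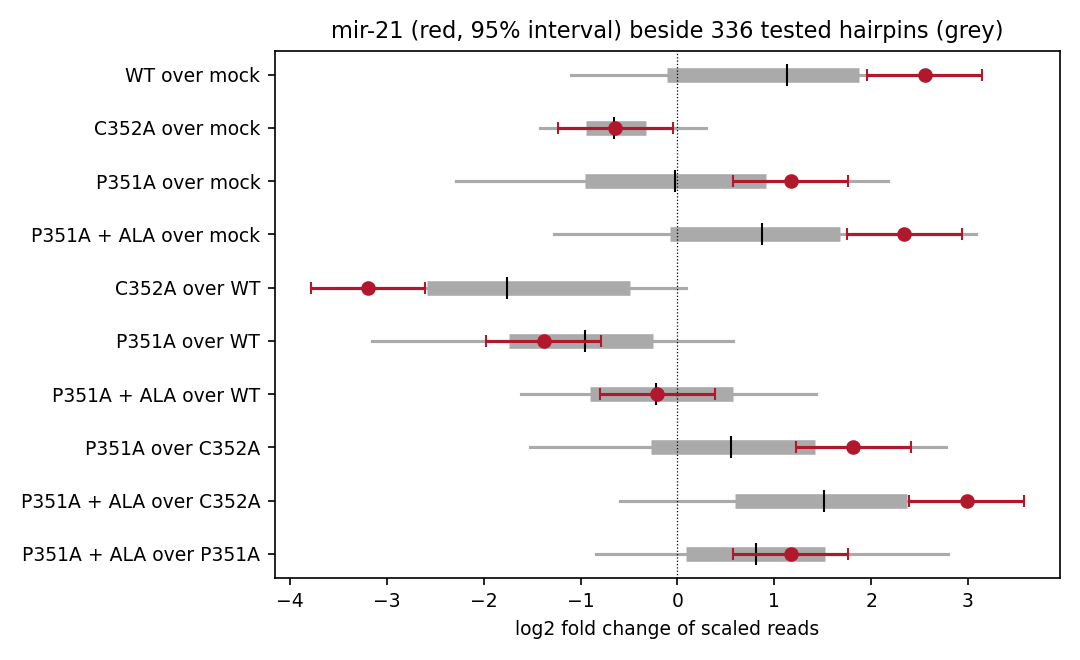
Log2 change of mir-21 (red, with its 95% interval from limma) in the 10 comparisons between rescue groups, beside the distribution of the 336 tested hairpins (tick at the median, thick grey bar from the 25th to the 75th and thin bar from the 5th to the 95th percentile). mir-21 lay at 2.55 against a median of 1.13 in WT over mock and at 1.17 against 0.81 in P351A plus ALA over P351A.

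**Figure D3:**
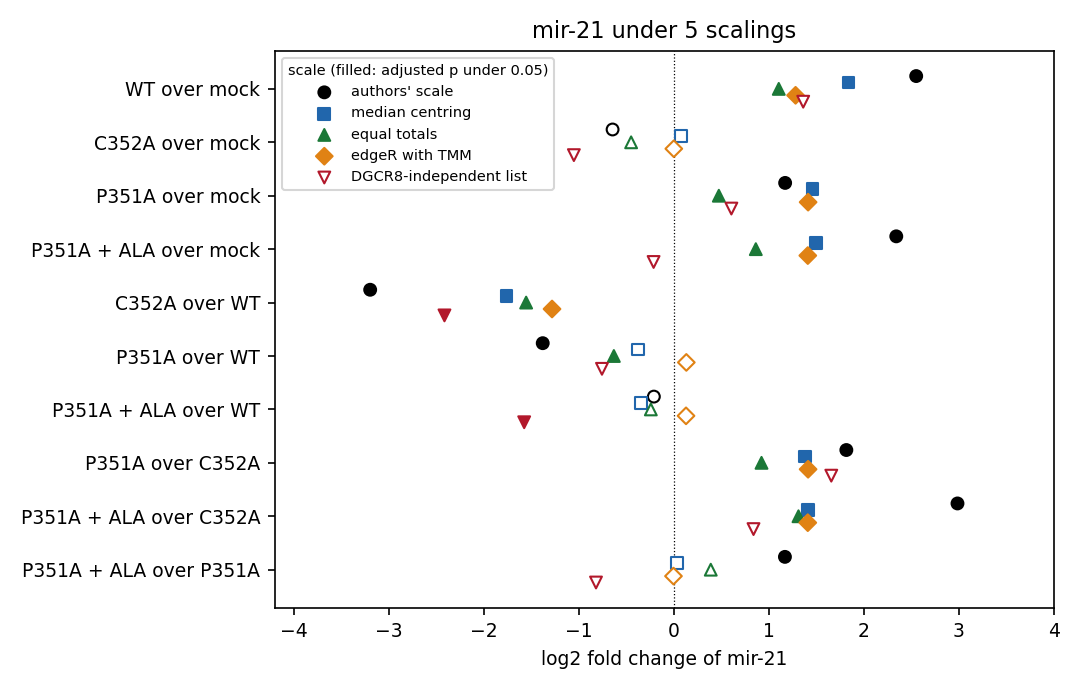
Log2 change of mir-21 in each comparison of rescue groups on 5 scalings; filled symbols have an adjusted p under 0.05. All scalings place C352A below WT, from -3.20 on the authors' scale to -1.28 with TMM, whereas P351A plus ALA over P351A runs from 1.17 to -0.82.

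The share of a library held by mir-21 does not depend on the scale factor, although it moves with all other hairpins. It was 6.30%, 4.72% and 5.01% in the C352A libraries and 9.48%, 6.86% and 5.82% in mock. It was 8.98%, 10.5% and 10.8% in P351A, 11%, 14.9% and 13.9% in P351A plus ALA, and 18.2%, 15.0% and 13.7% in WT. The group order of the shares was that of the levels, with more overlap. mir-21 was the most abundant microRNA in all WT and all P351A plus ALA libraries and in 2 of 3 P351A libraries. Its rank was 3 in mock and in C352A library 1 and 4 in the other C352A libraries. In all of these mir-320a and mir-320b led. They were ranked as separate names, although they may share reads. In WT it held on average 2.85 times the reads of the next microRNA.

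The mean share was 15.7% ± 2.32 in WT against 7.39% ± 1.89 in mock (SD, n = 3 each), a difference of 8.28 points. The difference of C352A from WT was -10.3 points, that of P351A from WT -5.59 points, and that of P351A plus ALA from P351A 3.19 points. In each of these the libraries did not overlap, and the 2-sided exact permutation p was 0.1, the smallest that 3 against 3 allows, so no share comparison could pass 0.05. Adjusted over the 10 pairs of groups it was 0.143. For P351A plus ALA and P351A the lack of overlap rests on the library sum used. Their shares overlapped without the mir-320 hairpins, and also with copies of 1 mature name counted once. The other comparisons named so far stayed separate on those sums. The shares overlapped between C352A and mock (-2.05 points, exact permutation p = 0.2), P351A and mock (2.69 points, exact permutation p = 0.2), and P351A plus ALA and WT (-2.40 points, exact permutation p = 0.4). Single libraries moved these differences: C352A minus mock was -0.998 points without mock library a, and P351A plus ALA minus WT was -1.12 without WT library 1 and -1.26 without P351A plus ALA library 1. P351A and mock thus did not overlap in level but did in share. On the authors' scale the gain of mir-21 made up 20.9% of the whole gain in summed scaled reads from mock to WT. It made up 17.9% of that from P351A to P351A plus ALA.

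Set against mir-320a within the same library, which also needs no scale factor, mir-21 gave ratios of 8.41 in the parental and 0.160 in the dCTT library. The ratio was 0.441, 0.330 and 0.346 in C352A, and 0.874, 0.565 and 0.471 in mock. It was 0.886, 1.22 and 1.25 in P351A, 1.54, 2.34 and 2.34 in P351A plus ALA, and 5.24, 2.64 and 2.56 in WT. On this measure all 5 groups were separate, C352A from mock and P351A plus ALA from WT included. The exact permutation p was 0.1 in all 10 pairs of groups and 0.1 after adjustment, the smallest the design allows. P351A plus ALA reached a mean ratio of 2.07 ± 0.461 and P351A 1.12 ± 0.200 (SD, n = 3 each). A ratio within a library shows unequal change of the pair and does not show which of them changed.

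miR-590-5p shares the seed printed above and so reads an overlapping set of target sites, but its hairpin, on another chromosome, was far rarer. mir-590 held 265 scaled reads in the parental library and 7 in the dCTT library. In the rescues it held 236, 79.3 and 52.8 in WT and 84, 22.5 and 32.6 in mock, and the highest mock library lay above the lower WT libraries. It held 8.12, 24.4 and 9.84 in C352A, 54.1, 83.1 and 81.0 in P351A, and 157, 185 and 86.1 in P351A plus ALA. mir-590 was lower in C352A than in WT, as mir-21 was, with a log2 change of -2.89 ± 0.55 (SE; limma adjusted p = 0.000151). The sign was the same on each scaling tried. WT over mock was 1.31 (limma adjusted p = 0.0467) but -0.11 with equal totals and -0.063 with TMM, and P351A plus ALA over P351A was 0.92 (limma adjusted p = 0.183). In every library mir-21 supplied nearly all reads with this seed.

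The hairpins whose levels most resembled that of mir-21 over the 15 rescue libraries were sought by Pearson's r on log2(scaled reads + 1). The first 5 were mir-148a (r = 0.979), mir-34a (0.968), mir-106b (0.965), mir-140 (0.965) and mir-331 (0.965). mir-34a is a target of p53, which HCT116 cells keep in its wild-type form, mir-106b belongs to the mir-106b-25 cluster, and mir-140 is best known from cartilage. mir-34a averaged 98.2 scaled reads in mock, 711 in WT, 41.8 in C352A, 354 in P351A and 1051 in P351A plus ALA. mir-148a averaged 475, 1694, 301, 848 and 2086 in the same order, so both had their highest mean under ALA while mir-21 had its highest in WT. In P351A plus ALA over WT the log2 change was 0.71 for mir-34a, 0.32 for mir-148a and -0.21 for mir-21. For mir-21 it was not called (limma adjusted p = 0.583). High r was common. All hairpins of a library share its scale factor and depth, whose part was not tested. The median over the other 335 tested hairpins was 0.726, and 49 exceeded 0.9. On log2 shares the median was -0.094 and 1 hairpin exceeded 0.9, namely mir-34a (0.903), followed by mir-148a (0.856), mir-34c (0.843), mir-140 (0.841) and mir-190a (0.820). mir-106b had rank 36 on that measure (0.671).

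**Figure D4:**
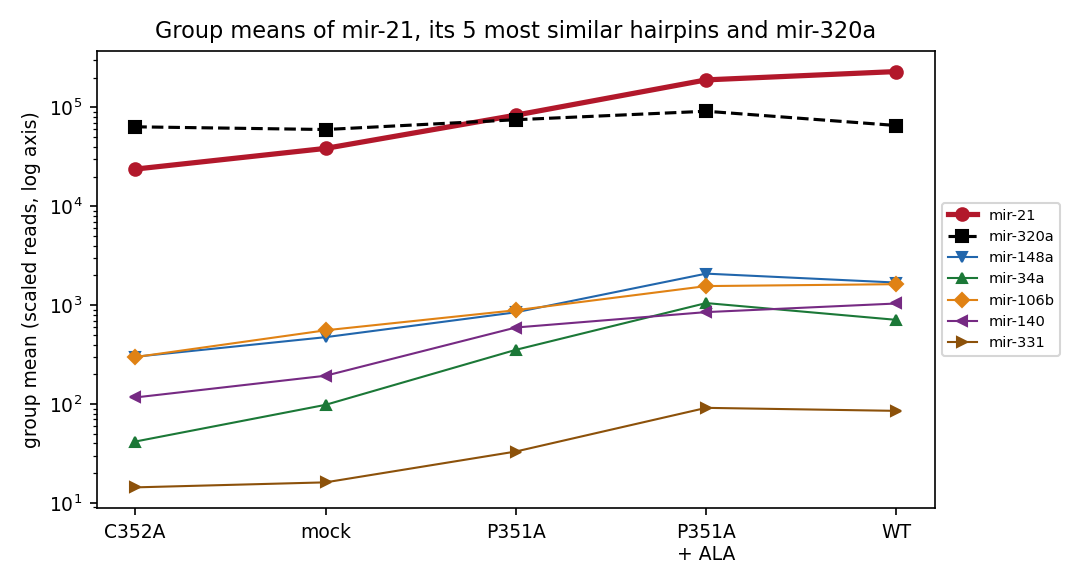
Mean scaled reads (log axis) of mir-21, the 5 hairpins with the most similar level over the 15 rescue libraries, and mir-320a, in each rescue group. The 5 hairpins were chosen for their likeness to mir-21 in these libraries, so their shared course is given by the choice; mir-320a runs from 59852 to 91619.

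Other abundant hairpins moved by differing amounts. The 9 other hairpins among the 10 highest in the parental library were mir-100, mir-191, mir-222, let-7a-3, mir-10a, mir-92a-1, mir-182, mir-151a and mir-31. From mock to WT 8 of the 9 rose, where 55.7% of all tested hairpins did, with a median log2 change of 1.67, from 0.69 for mir-100 to 3.80 for mir-10a, which lies in the HOXB cluster and was the only one above mir-21 (2.55). With equal totals 1 of the 9 rose and 2 fell. From WT to C352A all 9 fell on the authors' scale (median -1.95), where 65.5% of all tested hairpins did, and 8 of them fell by less than mir-21. With median centring 5 of the 9 fell, and with equal totals 3 fell and 1 rose.

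Under P351A the abundant hairpins parted. Against mock, mir-31, an epithelial microRNA raised in colorectal tumours, rose by 2.01 and mir-182 fell by 1.17, with mir-21 between them at 1.17 and a median of 0.35. In all 3 of the 9 rose and 1 fell, against 22.6% and 25.9% of all tested hairpins. These directions of mir-31 and mir-182 were the same on each scaling tried. Against WT, 5 of the 9 fell on the authors' scale, a share near the 51.2% over all tested hairpins, with a median of -1.40 beside the -1.38 of mir-21, while with median centring 3 rose and 4 fell. mir-100, which led the parental library, averaged 22147 scaled reads in WT and 13957 in P351A, so mir-21 was well above it in the rescued cells. With ALA added to P351A, 5 of the 9 rose, where 44.6% of all tested hairpins did, and values ran from -0.38 for mir-100 to 2.42 for mir-10a, whereas with median centring 2 rose and 3 fell.

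As the other microRNAs of its setting, 22 hairpins known to be raised in colorectal tumours were followed, chiefly of the mir-17-92, mir-183-96-182 and mir-221-222 clusters with mir-31, mir-135b, mir-210 and mir-224. Of the 22, 19 passed the filter on low values, and mir-106a, mir-155 and mir-223 did not. From mock to WT 18 of the 19 rose, where 55.7% of all tested hairpins did, with a median log2 change of 1.82 against 1.13 over all tested hairpins. mir-224 changed most, by 4.0 ± 0.41 (SE), from 6.25 to 113 scaled reads, followed by mir-135b at 3.15 ± 0.50, from 9.91 to 90.2, and both rose on each scaling tried. mir-96 was the member without a call (0.89 ± 0.51). With equal totals the list had 5 that rose and 1 that fell, so the number rests on the scale.

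In C352A cells all 19 fell against WT on the authors' scale (median -2.38 against -1.76 over all tested hairpins, of which 65.5% fell). With median centring 13 of them fell, and with equal totals 10 fell and 1 rose. P351A against mock split the list: 12 rose, mir-96, mir-182 and mir-183 of a single cluster fell (by 1.56, 1.17 and 1.19), and the median was 1.26 against -0.027 over all. Over all tested hairpins 22.6% rose and 25.9% fell. Those 3 fell on each scaling tried, while over the list 7 rose and 5 fell with equal totals. Against WT 9 of the 19 fell under P351A on the authors' scale, a share near the 51.2% over all tested hairpins, with a median of -0.82 against -0.95 over all, whereas with TMM 11 rose and 5 fell. With ALA added to P351A, 6 rose and mir-19a fell, where 44.6% and 2.98% of all tested hairpins did, with a median of 0.50 below the 0.81 over all tested hairpins and below the 1.17 of mir-21. With median centring 5 rose and 8 fell in that comparison. In P351A plus ALA against WT the list held 4 that rose and 3 that fell, where 13.7% and 20.2% of all tested hairpins did. Among them mir-31 stood at 1.03 and mir-224 at 1.09 (-0.34 and -0.27 with centring on the DGCR8-independent hairpins), where mir-21 was at -0.21.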

How the data were processed

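The authors deposited read counts per hairpin for the dCTT library and 1 mock library; the other deposited columns hold signal, which is reads times a scale factor per library. The submitters' processing notes name cutadapt 1.14, Bowtie2 and hg38 (GRCh38); how reads were assigned and scaled is not given in the sources used here. Dividing by 1 unit per library gave whole numbers for 100% of deposited values (tolerance 0.001), so whole reads were recovered; depth sums them over hairpins. Mock columns match the group only. limma 3.58.1 (R 4.3.3) was fitted to log2(value + 1) of all 15 rescue libraries with group as term, eBayes trend, 2-sided, over the 336 hairpins (277 names) with a mean of 10 or more. Benjamini-Hochberg adjusted p under 0.05 was called. These folds understate changes of low hairpins. Shares used exact permutation. Deviations of WT and C352A libraries correlated over 0.1 in all 3 same-number pairs, whereas those of WT and P351A correlated negatively in all 3. Any such pairing comes from the values, not the labels. Alternatives were edgeR 4.0.16, DESeq2 1.42.0, other scalings, filters and left-out libraries. The fit was tested on simulated counts with changes in both directions and exact scale factors, which could not test the choice of scale. Hairpins were folded with RNAfold 2.7.2 on GENCODE 29 sequences; the 5 named by likeness had the highest r. The members and lists were chosen with earlier results of these data known.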

Additional observations from a re-analysis of the deposited data

How the results depend on the processing

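The level of mir-21 kept its sign and its call in every alternative run for C352A against WT. In the other comparisons the scaling mattered most. The centring on the DGCR8-independent hairpins follows their median, which is mir-484 in most libraries. Centred on the DGCR8-independent hairpins, the log2 change was 1.36 in WT over mock, 0.61 in P351A over mock, -0.21 in P351A plus ALA over mock, -0.76 in P351A over WT, -1.58 in P351A plus ALA over WT, 1.66 in P351A over C352A, 0.84 in P351A plus ALA over C352A and -0.82 in P351A plus ALA over P351A. Centred on the median hairpin it was 0.079 in C352A over mock, -0.38 in P351A over WT and 0.033 in P351A plus ALA over P351A. With TMM these were 0.000194, 0.13 and -0.0033, and P351A plus ALA over WT was 0.13. With DESeq2, P351A over WT was -0.32 and P351A plus ALA over P351A 0.31; with equal totals the latter was 0.39. With only 2 groups in the fit, C352A over mock was -0.64 and called. The parental over dCTT log2 ratio was 1.31 with median centring, or 1.44 with equal totals; their difference in share, 4.93 points, was 1.60 without mir-320 copies and 5.72 with each copy counted once. The cause of these changes was not tested.

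Leaving out 1 library at a time, P351A plus ALA over WT ran from -0.41 to 0.16, and no call of mir-21 was lost in any comparison. Over the listed results and settings, 238 kept direction and call, 10 lost the call, 2 gained it, 8 reversed and 4 moved. The count of hairpins called in C352A over mock was 50, against 24 with DESeq2, 18 with TMM, 16 with median centring, 29 without the filter and 6 with centring on the DGCR8-independent hairpins. That last scaling also gave 61 in place of 212 in WT over mock, 98 of 220 in C352A over WT, 55 of 183 in P351A over WT, 86 of 163 in P351A over mock, 72 of 171 in P351A over C352A, 80 of 234 in P351A plus ALA over C352A and 175 in place of 114 in P351A plus ALA over WT, which had 49 with only its 2 groups in the fit.

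Over all groups with replicate numbers, same-number libraries did not deviate together more than others: the median r was -0.020 over 18 such pairs, with 6 over 0.1, and -0.013 over 36 other pairs, with 12 over 0.1. In WT with C352A all 3 same-number pairs exceeded 0.1 (r = 0.425, 0.185 and 0.289). All 3 were negative in WT with P351A (r = -0.345, -0.240 and -0.135) and in C352A with P351A (r = -0.203, -0.142 and -0.056). The labels do not say what the replicate numbers share. With a replicate block the log2 change stayed at -3.20 in C352A over WT and -1.38 in P351A over WT, and no call of mir-21 changed (limma adjusted p 3.56e-06 in C352A over WT, 0.00117 in P351A over WT, 0.571 in P351A plus ALA over WT, 0.000199 in P351A over C352A, 2.22e-06 in P351A plus ALA over C352A and 0.00432 in P351A plus ALA over P351A). Mock columns carry no number, so the 4 mock comparisons have no replicate block. Depth does not limit mir-21, with 4876 reads or more in every library, but it limits mir-590, with as few as 7.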
